A study of Mus musculus with 3143 samples.

Results

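Tmem14c, Ralb, BC018473 and Trim12a are 4 genes whose reads were fewer in kidney cells of IgAN mice than in those of Control mice in several cell types at once. They are 4 of the 46517 gene names in a table of read counts from single cells, and they were chosen by name from that same difference, so their group difference is a description here and carries no test. The cells came from the glomerular fraction of the kidney of adult C57BL/6 mice. IgAN stands for IgA nephropathy, in which deposits of the antibody IgA build up in the mesangium of the glomerulus. The labels give IgAN as a treatment and do not say how it was brought about, or from how many animals the cells came. There were 1798 IgAN cells, from plates 313, 315, 316, 318, 322 and 325. The 1345 Control cells came from plates 314, 317, 321 and 326. Tissue of both groups was dissociated with collagenase, pronase and DNase, and living cells, marked by a dye, were sorted 1 to a well and read by Smart-seq2, a full-length polyadenylated RNA method without molecular identifiers.

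Those of the 4 genes that encode a protein belong to different gene families. Tmem14c encodes a protein of the inner mitochondrial membrane that red cell precursors of mouse need to bring a heme precursor into the matrix. Ralb encodes a small GTPase of the Ras superfamily that is switched on by exchange factors such as Ralgds and off by the RalGAP complex, and that acts on the exocyst, a complex that tethers secretory vesicles, and, in human cells, on the kinase Tbk1. Trim12a belongs to a cluster of Trim genes on mouse chromosome 7 related to TRIM5, a factor that blocks retroviruses in primates. BC018473 is annotated as an antisense RNA gene that encodes no protein.

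On GRCm38, Tmem14c lies on the plus strand of chromosome 13 (41016292 to 41022586), Ralb on the minus strand of chromosome 1 (119470305 to 119504794), Trim12a on the minus strand of chromosome 7 (104299894 to 104315466) and BC018473 on the plus strand of chromosome 11 (116752167 to 116759373). They thus lie on different chromosomes. The processed pseudogene Gm29454 lies within Ralb on the other strand, and the antisense gene Gm15133 overlaps Trim12a. The strand setting of the counting is not given in the sources used here, so reads of such overlapping pairs cannot be told apart. Of all stretches of 50 bases in the annotated transcripts, Trim12a shares 10.5% with other genes (5.04% with Trim5) and Tmem14c shares 2.20% with Gm4246, while Ralb and BC018473 share 0. The counts of Trim12a are therefore the least certain in how reads were assigned.

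RefSeq promoter windows on GRCm38.p6 were matched for 3 of the 4 genes. The 250 bases before each annotated start are printed because these genes differ together between the groups, with CCAAT, on either strand, in capitals (ATTGG where it lies on the other strand). The windows are chr13:41016000-41016249 on the plus strand, chr1:119504783-119505032 on the minus strand and chr7:104315496-104315745 on the minus strand, each written 5′ to 3′ on the strand of its gene.
Tmem14c: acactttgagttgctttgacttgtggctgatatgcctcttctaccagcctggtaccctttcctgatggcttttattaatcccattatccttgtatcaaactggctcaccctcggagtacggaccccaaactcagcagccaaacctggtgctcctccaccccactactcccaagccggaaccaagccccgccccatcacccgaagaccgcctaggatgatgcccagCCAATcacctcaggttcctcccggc
Ralb: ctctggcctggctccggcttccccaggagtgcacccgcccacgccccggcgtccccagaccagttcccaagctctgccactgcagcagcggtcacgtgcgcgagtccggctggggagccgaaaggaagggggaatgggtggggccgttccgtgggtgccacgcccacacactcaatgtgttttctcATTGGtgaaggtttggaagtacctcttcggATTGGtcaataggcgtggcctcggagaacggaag
Trim12a: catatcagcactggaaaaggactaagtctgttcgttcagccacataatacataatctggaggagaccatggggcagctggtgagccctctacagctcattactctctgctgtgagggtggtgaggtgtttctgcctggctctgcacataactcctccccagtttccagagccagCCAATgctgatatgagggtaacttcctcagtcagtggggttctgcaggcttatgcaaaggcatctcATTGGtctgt

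CCAAT, the core of the motif bound by the factor NF-Y, was found in all 3 windows: it began 25 bases before the start in Tmem14c, 34 and 64 bases before it in Ralb and 10 and 76 bases before it in Trim12a. Of 32817 promoter windows of the same length, 33.8% hold it. GGGCGG, the GC box core, was found in Tmem14c and Ralb and is held by 32.7% of windows. CACGTG, an E-box, was found in Ralb and is held by 6.02%. TGACGT (6.46%) and TATAAA (12.4%) were in none of the 3. No motif overlapped another in these windows, and a match is a description of the letters alone.

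The median cell held 231222 reads in IgAN and 241543 in Control, with a range of 50365 to 1135415 over all cells. Each plate held cells of 1 group, so an effect of plate cannot be told apart from one of group. Each group was treated as 1 sample with no test. The spread between plates stands in for a replicate error and may be technical. Intervals in parentheses are exact at 95% (Poisson for summed reads, Clopper-Pearson for shares) and cover counting error only. Levels are CPM, reads of the gene per 1000000 reads of the cells of a class, and fewer cells that express a gene and less RNA per cell cannot be told apart in a summed level. Classes were named from marker genes and are called X-like: all 10 podocyte markers were found in the podocyte-like cluster, and all 10 endothelial markers in each of the 6 endothelial-like clusters but also in 2 unnamed ones. Cells that carried markers of another class were 97 of 168 in the mesangial-like class, 27 of 32 in the smooth muscle or renin class, 45 of 120 in the distal tubule or collecting duct-like class, 7 of 20 in the neutrophil-like class, 58 of 216 in the proximal tubule-like class and 66 of 294 in the macrophage or dendritic-like class.

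One measurement separates the plates of the groups apart from the 4 genes, and it bears on which cells belong to which group. Gm13340 on chromosome 2 is a nuclear copy of the mitochondrial gene mt-Co1, with the same base at 97.6% of 1545 positions. The share of Gm13340 in the reads of both genes had a median of 56.3% to 57.2% on the 6 IgAN plates, against 0% to 0.621% on the 4 Control plates. A total of 41 cells were on the side of a 30% share that is usual for the other label: 18 cells of IgAN plate 318, 1 cell of IgAN plate 322 and 22 cells of Control plate 317. Results below are for all cells as labelled, and without these 41 cells where that changes a value by much. Without them the log2 difference over all cells (IgAN minus Control, with 1 CPM added) was -3.44 for Tmem14c, -2.04 for Ralb, -5.04 for BC018473 and -3.64 for Trim12a, against -3.23, -1.90, -4.63 and -3.44 with them.

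The summed levels of the 4 genes followed the Gm13340 share in those cells. Tmem14c was at 148 CPM (138 to 158) in the 19 IgAN cells with a low share, against 10.9 in the other 1779 IgAN cells, and at 3.91 CPM (2.32 to 6.18) in the 22 Control cells with a high share, against 128 in the other 1323 Control cells. Ralb was at 313 CPM in the 19 IgAN cells and 35.3 CPM in the other IgAN cells, and at 27.8 CPM in the 22 Control cells and 148 CPM in the other Control cells. BC018473 was at 32.4 CPM in the 19 and 0.213 CPM in the other IgAN cells, and at 0.217 CPM in the 22 and 39.0 CPM in the other Control cells. Trim12a was at 25.7 CPM in the 19 and 1.10 CPM in the other IgAN cells, and at 0.652 CPM in the 22 and 25.3 CPM in the other Control cells. For each gene these 19 IgAN cells thus stood above the other IgAN cells, and these 22 Control cells below the other Control cells. The summed levels were not those of the other group throughout: Ralb in the 19 IgAN cells was well above Control, and Tmem14c in the 22 Control cells was below IgAN. They rest on few cells of unmatched classes. At least 3 reads of Ralb were found in 8 of the 19 (42.1%, 20.3 to 66.5), against 33.9% of the other Control cells. At least 3 reads of Tmem14c were found in 2 of the 22 (9.09%, 1.12 to 29.2), against 9.05% of the other IgAN cells. The 19 IgAN cells held 14.0% of the Tmem14c reads of IgAN, 9.65% of its Ralb reads, 64.6% of its BC018473 reads and 21.9% of its Trim12a reads. The BC018473 reads of these 19 cells came from 1 cell almost alone, since 1 of the 19 had 3 or more reads. How the 19 and the 22 cells came to carry their labels was not tested. The labels give C57BL/6 for all cells and no substrain, so a genetic difference between the mice of the groups cannot be told apart from a difference of treatment in the Gm13340 share and in the 4 genes.

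**Figure D1:**
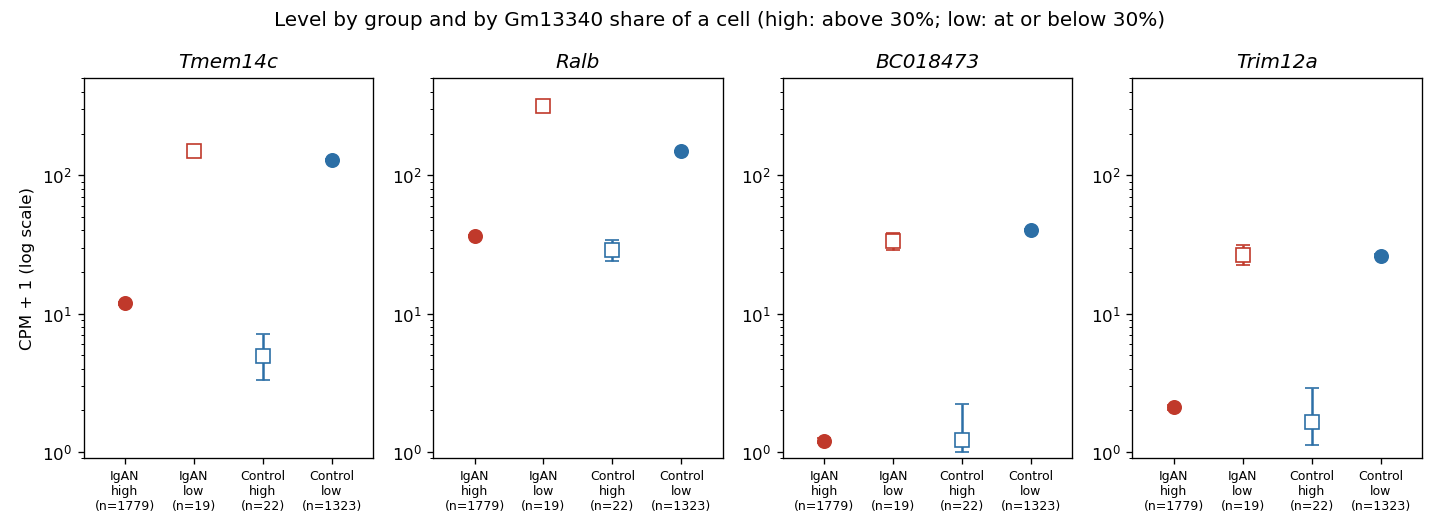
CPM + 1 on a log axis for each gene in 4 sets of cells, IgAN in red and Control in blue, with filled circles for cells whose Gm13340 share lies on the side of 30% usual for their group and open squares for the others. Bars are exact 95% Poisson intervals. The 19 IgAN cells with a low share stand above the other IgAN cells for each gene (for BC018473 almost all from 1 cell), and the 22 Control cells with a high share stand below the other Control cells.

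Tmem14c was low in every IgAN plate and high in every Control plate. Over all cells it was at 12.5 CPM (12.2 to 12.8) in IgAN and 126 CPM (125 to 127) in Control, a log2 difference of -3.23. The IgAN plates ran from 6.79 to 17.7 CPM with a median of 11.7, and the Control plates were at 91.0, 97.7, 165 and 167 CPM. The groups did not overlap, and the lowest Control plate stood well above the highest IgAN plate. At least 3 reads of Tmem14c were found in 168 of 1798 IgAN cells (9.34%) and 521 of 1345 Control cells (38.7%). Among those cells alone the median level was 73.0 CPM in IgAN and 249 CPM in Control, so cells with reads were fewer and also held less in IgAN.

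By class, the largest set is endothelial-like cells, which line the capillaries. Tmem14c was there at 11.8 CPM (11.4 to 12.2, 1012 cells) in IgAN and 144 CPM (142 to 146, 615 cells) in Control, log2 -3.50. The 6 IgAN plates ran from 5.35 to 21.7 CPM and the Control plates were at 102, 108, 204 and 218 CPM. A gene is called lower here when it has at least 10 CPM and a read in at least 10% of cells in 1 group, a log2 difference of -1 or below, and no overlap between plates with at least 10 cells of the class. In endothelial-like cells 0.712% of the 9689 genes measured were lower by that rule, and 0.774% higher. A class was compared where IgAN and Control each had 2 or more plates with that many cells, and Tmem14c was lower in 6 of these 7 classes. Over all cells of the data 2.12% of genes were lower and 0.841% higher.

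Podocyte-like cells, the epithelium that holds the slit diaphragm, had 3.45 CPM of Tmem14c in IgAN (39 cells) and 88.1 CPM in Control (146 cells), where 6.35% of genes were lower and 3.73% higher. That split depends on the scaling, with 606 lower and 356 higher by CPM but 409 lower and 602 higher by the median of ratios, under which Tmem14c was at log2 -4.05. The 2 IgAN plates with 10 such cells were at 4.98 and 6.49 CPM and the Control plates at 27.3, 92.2, 113 and 116 CPM. Mesangial-like cells, which support the capillary loops, had 5.32 CPM in IgAN (117 cells) and 75.2 CPM in Control (51 cells), with 1.48% of genes lower and 1.29% higher. Proximal tubule-like cells had 18.5 CPM in IgAN and 152 CPM in Control, with 2.08% of genes lower and 6.29% higher (214 and 648 genes by CPM, 322 and 546 by the median of ratios). Macrophage or dendritic-like cells had 25.9 CPM in IgAN and 148 CPM in Control, with 0.435% of genes lower and 0.728% higher (43 and 72 genes by CPM, 60 and 63 by the median of ratios), and T or NK cell-like cells had 12.7 CPM in IgAN and 141 CPM in Control, with 1.25% of genes lower and 0.466% higher. In each of these classes every Control plate stood above every IgAN plate.

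Distal tubule or collecting duct-like cells were the exception, with 9.79 CPM in IgAN and 72.8 CPM in Control. Their 3 IgAN plates were at 0.453, 2.59 and 20.0 CPM and their Control plates at 3.92 and 89.6 CPM, so the groups overlapped. The low Control plate is plate 317, and without the 41 cells it no longer held 10 cells of the class. In that class 5.4% of genes were lower and 12.2% higher (538 and 1216 genes by CPM, 695 and 1004 by the median of ratios). In the 4 classes with too few plates, Tmem14c was at 0.384 CPM in IgAN and 82.6 CPM in Control in B or plasma cell-like cells, and at 1.02 CPM in IgAN and 69.3 CPM in Control in parietal epithelial-like cells. Neutrophil-like cells had 1.74 CPM in IgAN (8 cells) and 210 CPM in Control (12 cells). Cells of the smooth muscle or renin class had 14.8 CPM in IgAN and 36.1 CPM in Control, where 1 cell held 96.7% of the Control reads. By share that class went the other way, with 3 or more reads in 19.0% of IgAN and 9.09% of Control cells.

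Within Control the level of Tmem14c ran from 36.1 CPM in the smooth muscle or renin class to 210 CPM in the 12 neutrophil-like cells. Both ends rest on few cells, since 1 cell held 96.7% of the reads in the first class and 66.9% in the second. Proximal tubule-, macrophage or dendritic-, endothelial- and T or NK cell-like cells lay between 141 and 152 CPM. Podocyte-, B or plasma cell-, mesangial- and distal tubule-like cells lay between 72.8 and 88.1 CPM. Plates of neighbouring compared classes in this order overlapped, for instance 102 to 218 CPM in endothelial-like and 27.3 to 116 CPM in podocyte-like cells.

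**Figure D2:**
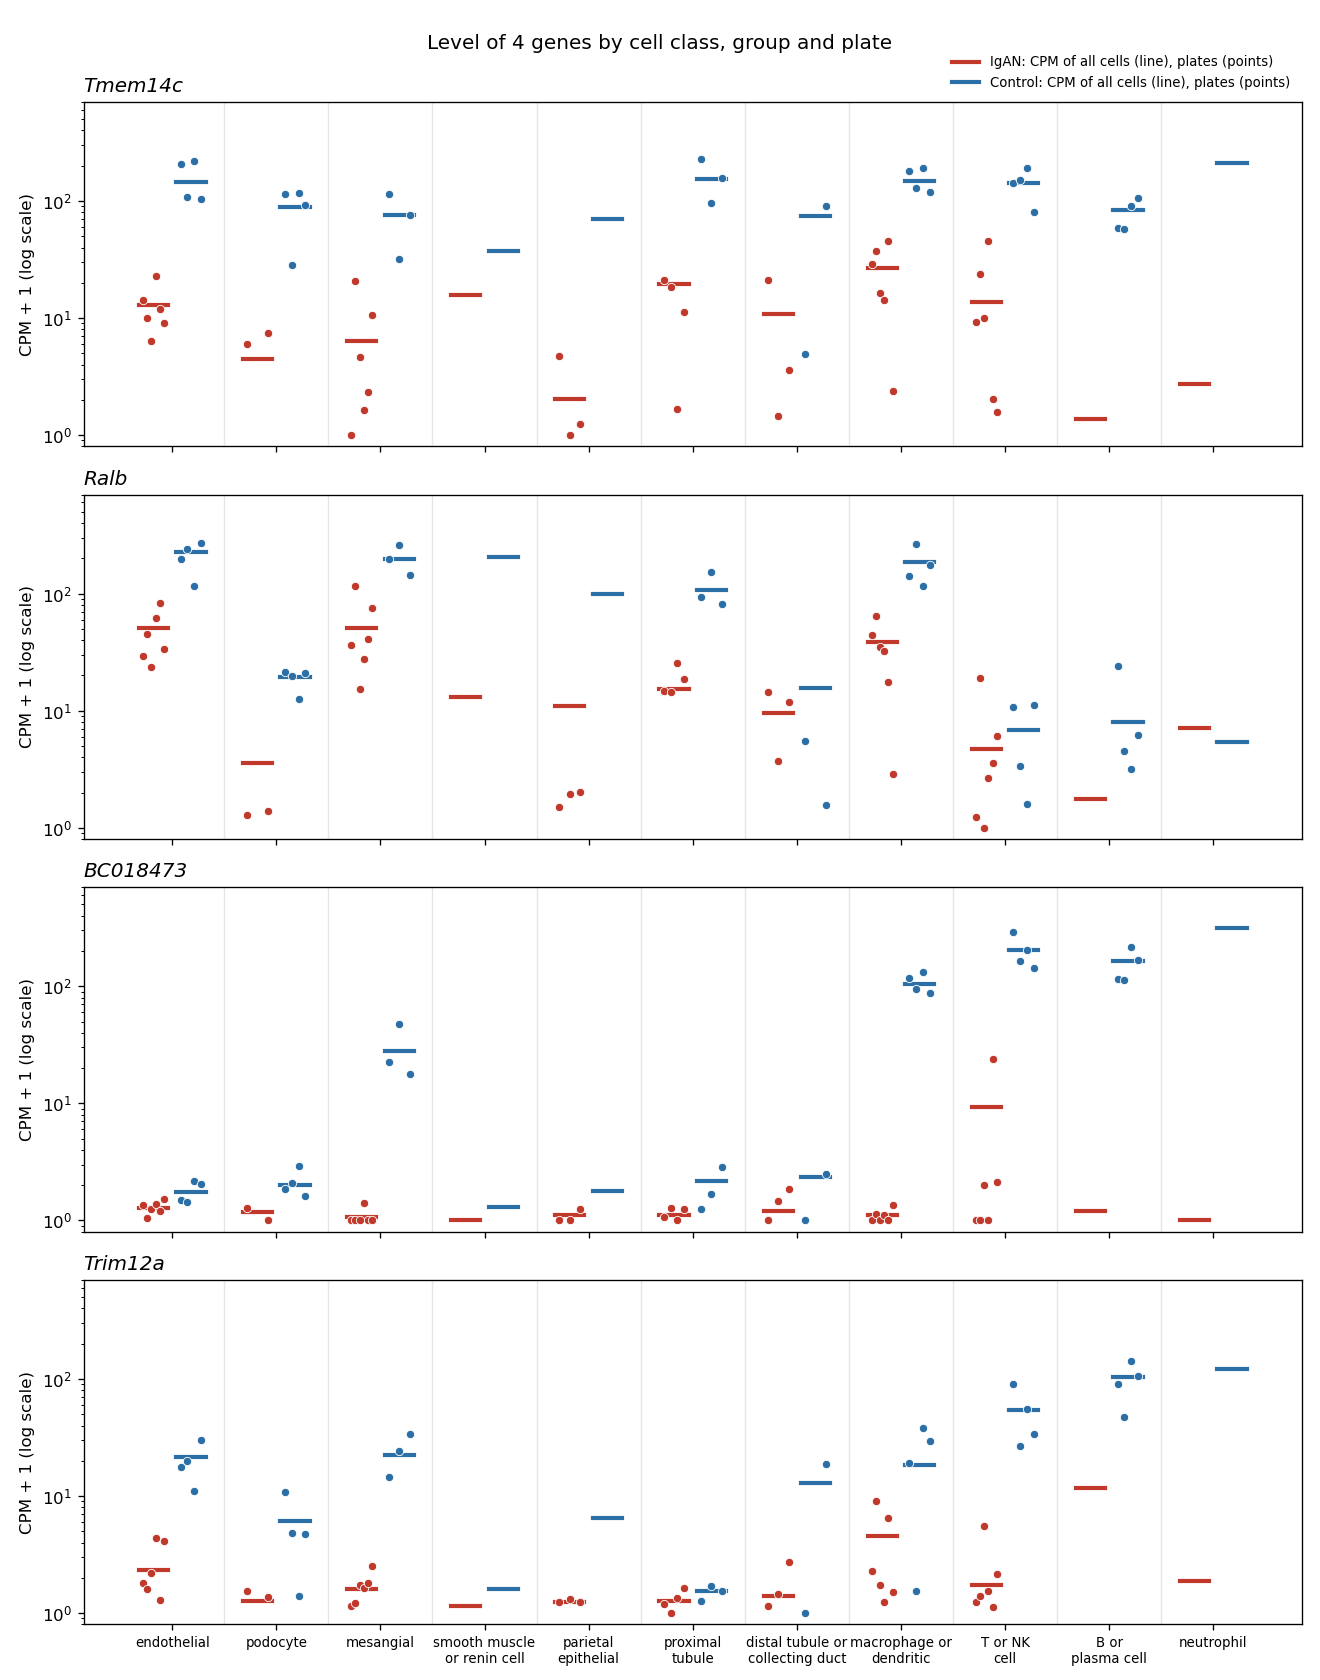
CPM + 1 on a log axis for each of the 4 genes in 11 cell classes, IgAN in red left of Control in blue. Lines are the level over all cells of the class and points are plates with at least 10 cells of it. Tmem14c has a lower level in IgAN in all 11 classes. In the smooth muscle or renin class this rests on 1 cell with 96.7% of the Control reads. Ralb differs in classes where Control is near 100 CPM or above and in podocyte-like cells. BC018473 is high mainly in Control leukocytes, and Trim12a is highest in the Control neutrophil, B or plasma cell, and T or NK cell classes.

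Ralb differed by cell type more than Tmem14c did. In endothelial-like cells it was at 50.0 CPM (49.1 to 50.8) in IgAN and 224 CPM (222 to 226) in Control, log2 -2.14. IgAN plates ran from 22.8 to 82.5 CPM with every Control plate above them, at 116, 197, 239 and 271 CPM. At least 3 reads were found in 22.0% of IgAN and 50.9% of Control endothelial-like cells. The median level among those cells was 88.2 CPM in IgAN and 385 CPM in Control.

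Between 0.435% and 6.35% of all measured genes were lower in each of the 6 classes where Ralb was measured and compared. Ralb was lower by the rule in 5 of them. Besides endothelial-like cells these were mesangial-like cells (49.5 CPM in IgAN, 197 CPM in Control), macrophage or dendritic-like cells (37.5 CPM in IgAN, 185 CPM in Control), proximal tubule-like cells (14.3 CPM in IgAN, 105 CPM in Control) and podocyte-like cells (2.61 CPM from 28 reads in IgAN, 18.5 CPM from 816 reads in Control). The podocyte-like call rests on IgAN plates 313 and 316, with 1 read each. The other IgAN reads came from plates with fewer than 10 such cells, among them plate 318 with 17 reads in 6 cells, at 11.2 CPM, next to the lowest Control plate at 11.6 CPM. In mesangial-like cells the highest IgAN plate, at 116 CPM, lay not far under the lowest Control plate, at 144 CPM. Over all cells Ralb was at 38.6 CPM in IgAN and 147 CPM in Control, log2 -1.90, but Control plate 321, at 59.2 CPM, lay under IgAN plate 322, at 60.8 CPM. Plate 321 is also the lowest Control plate for Ralb within endothelial-like cells.

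Ralb was scarce in lymphocytes and distal tubule cells of both groups. T or NK cell-like cells had 3.73 CPM in IgAN and 5.89 CPM in Control, and B or plasma cell-like cells 0.768 CPM in IgAN and 7.04 CPM in Control. Neutrophil-like cells were the 1 class of 11 with a higher value in IgAN, at 6.08 CPM against 4.43 CPM in Control, from 7 reads in each group. Distal tubule or collecting duct-like cells had 8.51 CPM in IgAN and 14.7 CPM in Control, where 1 cell held 87.6% of the Control reads. Without Control plate 314 the log2 difference in that class turned to 1.78. Parietal epithelial-like cells had 10.1 CPM in IgAN and 97.4 CPM in Control, while cells of the smooth muscle or renin class had 12.2 CPM in IgAN and 204 CPM in Control. Neither class had enough plates to compare.

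The Control order for Ralb had a clear step. Endothelial-, smooth muscle or renin-, mesangial- and macrophage or dendritic-like cells lay at 185 to 224 CPM with overlapping plates, and proximal tubule-like cells at 105 CPM. They were followed by parietal epithelial-like cells at 97.4 CPM, which had no plate with 10 cells. Podocyte-like cells stood at 18.5 CPM with plates at 11.6 to 20.5 CPM, under the lowest proximal tubule plate of 80.3 CPM. In IgAN the order was similar at a lower level, with endothelial-like cells at 50.0 CPM and mesangial-like cells at 49.5 CPM highest.

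Endothelial-like cells fell into 6 clusters that the groups filled unequally, so the level was also read cluster by cluster. Cluster 4, led by Fbln5 and Igfbp3, held 107 IgAN and 109 Control cells. There Tmem14c was at 9.29 CPM (8.14 to 10.6) in IgAN and 129 CPM (125 to 133) in Control, and Ralb at 37.9 CPM in IgAN and 154 CPM in Control. Trim12a was at 0.274 CPM in IgAN and 12.3 CPM in Control in the same cluster. Cluster 0 held 45 IgAN and 419 Control cells and had the highest Ralb of the IgAN clusters, at 99.8 CPM, against 233 CPM in Control. Clusters 2 and 3 held 275 and 254 IgAN cells but 11 and 5 Control cells, so their Control values rest on few cells. In all 6 clusters the 3 genes had lower values in IgAN. Cluster 22 held only 5 IgAN and 6 Control cells, with 0 and 4 reads of Trim12a, whose intervals overlapped.

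**Figure D3:**
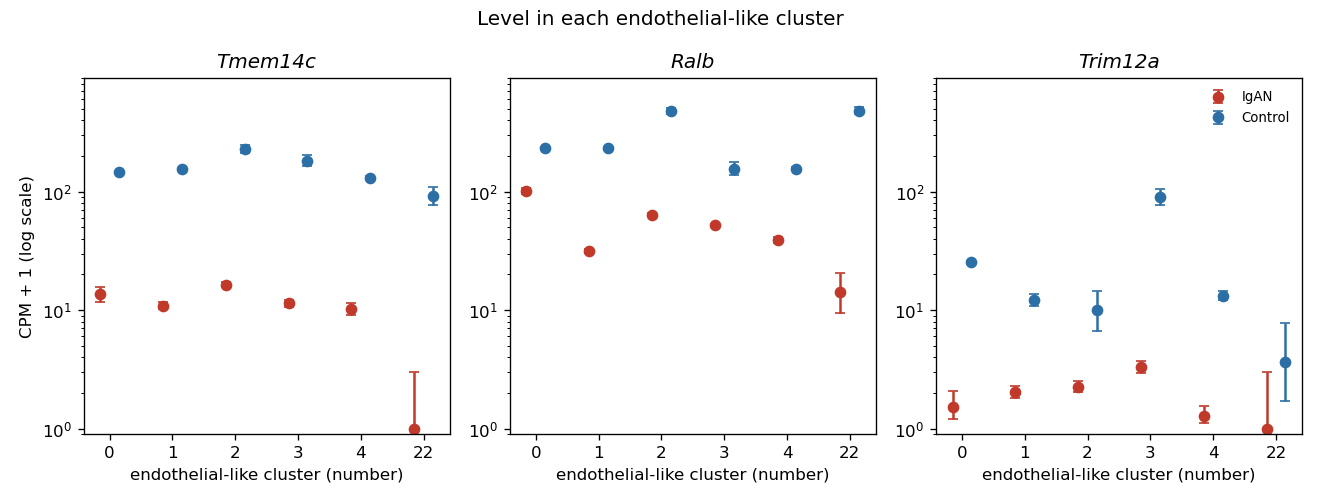
CPM + 1 on a log axis of Tmem14c, Ralb and Trim12a in the 6 endothelial-like clusters, IgAN in red left of Control in blue. Bars are exact 95% Poisson intervals. IgAN lies below Control in each cluster and gene, including cluster 4, which holds 107 IgAN and 109 Control cells. For Trim12a the intervals overlap in cluster 22, which holds 5 IgAN and 6 Control cells.

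BC018473 was a leukocyte RNA in Control and was nearly absent from IgAN. In macrophage or dendritic-like cells it was at 0.102 CPM (0.033 to 0.237, 5 reads in 191 cells) in IgAN and 104 CPM (100.0 to 107, 3008 reads in 103 cells) in Control. IgAN plates lay at 0 to 0.346 CPM and Control plates at 86.7, 93.7, 118 and 133 CPM. At least 3 reads were found in 0 of 191 IgAN cells, which allows a share of up to 1.57% (3 counts of the total; the exact interval reaches 1.91%), and in 32 of 103 Control cells (31.1%). The groups were far apart on every plate.

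In T or NK cell-like cells BC018473 was at 8.29 CPM in IgAN and 203 CPM in Control. IgAN plates were at 0 CPM on 3 plates, 0.998 CPM on plate 316, 1.14 CPM on plate 325 and 22.7 CPM on plate 322, while Control plates were at 142, 164, 203 and 287 CPM. A single IgAN cell of plate 322 held 97.3% of the IgAN reads, and it is the cell of that plate with a low Gm13340 share. Without the 41 cells the log2 difference went to -7.37, against -4.45 with them. Of the Control T or NK cell-like cells, cluster 11, led by Gzma and Ncr1 of NK cells, had 341 CPM (330 to 353), and cluster 10, led by Cd3e and Tcf7 of T cells, had 128 CPM (123 to 133). In IgAN cluster 11 had 0 reads in 61 cells, and cluster 10 had 20.3 CPM in 32 cells, nearly all from the 1 cell described above.

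B or plasma cell-like cells had 0.192 CPM of BC018473 in IgAN (1 read in 26 cells) and 163 CPM in Control (117 cells, plates at 111 to 217 CPM). Neutrophil-like cells had 0 reads in 8 IgAN cells, which allows up to 2.61 CPM (3 counts over the group), and 313 CPM in 12 Control cells. Mesangial-like cells had 0.074 CPM in IgAN and 27.1 CPM in Control, the third class in which the gene was lower by the rule. There 4 of 51 Control cells had 3 or more reads and 1 cell held 46.8% of them. In endothelial-, podocyte-, tubule-, parietal and smooth muscle-like cells the gene stayed at or under 1.33 CPM in both groups and could not be compared. The Control classes thus fell into leukocytes at 104 to 313 CPM, mesangial-like cells at 27.1 CPM and the rest near 1 CPM. Plates with at least 10 cells of a class did not overlap between these 3 levels. Neutrophil-like cells had no such plate, and 1 cell held 54.9% of their Control reads.

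Trim12a had its highest Control levels in the neutrophil, B or plasma cell, and T or NK cell classes. Macrophage or dendritic-like cells (17.4 CPM) and endothelial-like cells (20.7 CPM) could not be put in order. Their Control plates overlapped, with medians of 23.3 CPM and 17.9 CPM. Control plate 317 was low in macrophage or dendritic-like cells, at 0.544 CPM. In T or NK cell-like cells it was at 0.728 CPM (0.416 to 1.18) in IgAN and 53.0 CPM (50.4 to 55.8) in Control, log2 -4.97. IgAN plates ran from 0.127 to 4.49 CPM and Control plates were at 25.7, 32.6, 54.4 and 89.7 CPM. In endothelial-like cells it was at 1.32 CPM in IgAN and 20.7 CPM in Control, log2 -3.22. IgAN plates there lay at 0.296 to 3.39 CPM and Control plates at 10.1, 16.7, 19.0 and 29.3 CPM. Every Control plate was above every IgAN plate in both classes and also in mesangial-like cells, which had 0.591 CPM in IgAN and 21.4 CPM in Control.

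Trim12a was measured but overlapped between plates in 2 more classes. Macrophage or dendritic-like cells had 3.59 CPM in IgAN and 17.4 CPM in Control, with Control plate 317 at 0.544 CPM and the other Control plates at 18.1 to 37.0 CPM. Without plate 317 the gene was lower by the rule there and in 4 classes in all. Distal tubule or collecting duct-like cells had 0.402 CPM in IgAN and 11.9 CPM in Control, where 1 cell held 92.9% of the Control reads. B or plasma cell-like cells had 10.7 CPM in IgAN and 102 CPM in Control, the highest Control level outside neutrophil-like cells (120 CPM, 97.9% from 1 cell), and 1 IgAN cell held 96.4% of the IgAN reads. Proximal tubule-like cells had few reads of the gene, with 0.276 CPM in IgAN and 0.533 CPM in Control.

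Over all cells the share of cells with reads was lower in IgAN for each gene at 1 read, at 3 reads and after thinning. A read of Tmem14c was found in 16.0% of IgAN cells (14.3 to 17.7) and 61.9% of Control cells (59.3 to 64.5). With every cell thinned to 50000 reads the shares were 9.45% in IgAN and 43.6% in Control. For Ralb the shares were 38.4% in IgAN and 57.4% in Control, and 20.6% in IgAN and 37.8% in Control after thinning. Control plate 321 was again low, at 13.4% after thinning, under the IgAN range of 14.7% to 28.4%. Some classes went the other way for Ralb. In distal tubule or collecting duct-like cells a read was found in 44.6% of IgAN and 30.4% of Control cells, and in 23.0% of IgAN and 10.9% of Control cells after thinning. In T or NK cell-like cells the share after thinning was 12.9% in IgAN (12 cells) and 8.59% in Control (11 cells).

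BC018473 had a read in 4.45% of IgAN and 24.2% of Control cells, but 3 or more reads in 0.167% of IgAN (3 cells) and 9.07% of Control cells (122 cells). Trim12a had a read in 8.79% of IgAN and 23.9% of Control cells, but 3 or more reads in 0.890% of IgAN (16 cells) and 10.9% of Control cells (146 cells). Most IgAN cells with a read of either gene thus held 1 or 2 reads: 77 such cells for BC018473 and 142 for Trim12a. On every plate the share with 3 or more reads was at most 1.02% in IgAN and at least 6.61% in Control for both genes.

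**Figure D4:**
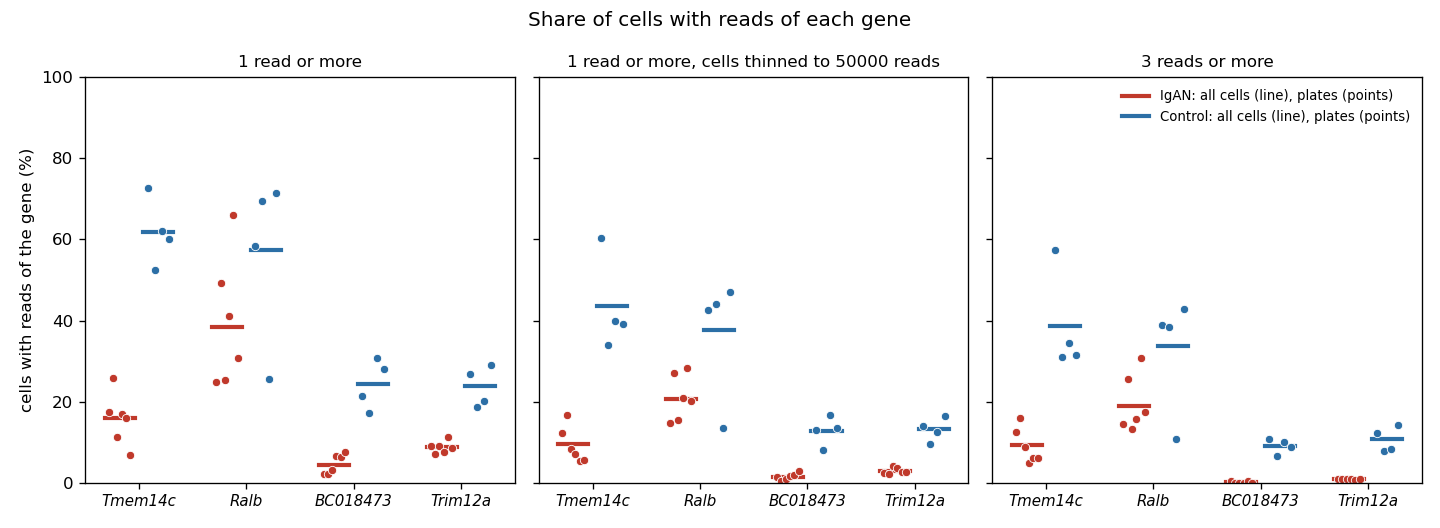
Share of cells with reads of each gene in percent, at 1 read, at 1 read after thinning every cell to 50000 reads, and at 3 reads, IgAN in red left of Control in blue. Lines are all cells and points are plates. IgAN and Control plates are apart for Tmem14c, BC018473 and Trim12a in each panel and overlap for Ralb, where Control plate 321 is low.

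Several of the genes together were rare in IgAN cells and less so in Control cells. At least 2 of the 4 genes had 3 or more reads in 46 of 1798 IgAN cells (all with 2) and in 320 of 1345 Control cells, of which 278 had 2 and 42 had 3. No cell of either group had all 4. Leukocytes weigh on these counts and on the shares over all cells, since B or plasma cell-like cells were 26 of the IgAN and 117 of the Control cells.

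The closest relatives of the genes had smaller differences in endothelial-like cells. Rala, the other Ral GTPase, was at 149 CPM in IgAN and 110 CPM in Control, log2 0.43. Tmem14a, of the same membrane protein family as Tmem14c, was at 12.5 CPM in IgAN and 9.41 CPM in Control and was not measured by the rule. In proximal tubule-like cells, where this was also so, it was at 9.18 CPM in IgAN and 27.9 CPM in Control, log2 -1.51. Trim12c, the nearest relative of Trim12a, was at 13.7 CPM in IgAN and 14.0 CPM in Control. In podocyte-like cells Rala was at 156 CPM in IgAN and 175 CPM in Control, in macrophage or dendritic-like cells at 124 CPM in IgAN and 118 CPM in Control, and in T or NK cell-like cells at 78.2 CPM in IgAN and 73.3 CPM in Control. In proximal tubule-like cells Rala was higher in IgAN by the rule, at 81.5 CPM against 15.2 CPM in Control, while Ralb was lower there. Trim12c was at 6.10 CPM in IgAN and 11.7 CPM in Control in T or NK cell-like cells, log2 -0.84, and was not called. Its log2 difference was negative in all 7 compared classes, from -0.03 in endothelial-like to -2.02 in podocyte-like cells, where it was at 1.30 CPM in IgAN and 8.33 CPM in Control and was not measured by the rule.

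Genes around the 4 loci were read in the same way, taking up to 3 on each side that were measured in endothelial-like cells. In endothelial-like cells 0.712% of all measured genes were lower by the rule and 0.774% higher. Of the 24 neighbours, 1 was lower there and 0 higher, and their median log2 difference was 0.05. The 1 is Gcnt2, a glycosyltransferase gene 55.4 kb before Tmem14c, at 26.7 CPM in IgAN and 58.7 CPM in Control, log2 -1.11. Pak1ip1, which ends 3.3 kb before Tmem14c, was at 143 CPM in IgAN and 114 CPM in Control. Nedd9, 287 kb after it, was at 266 CPM in IgAN and 404 CPM in Control. Tmem185b, 21.4 kb from Ralb, was at 41.9 CPM in IgAN and 58.6 CPM in Control, log2 -0.47.

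Near Trim12a, Trim5 at 11.8 kb was at 12.8 CPM in IgAN and 11.2 CPM in Control. Trim30a, 93.6 kb away, was at 159 CPM in IgAN and 97.9 CPM in Control, log2 0.70. Around BC018473, Ube2o was at 6.47 CPM in IgAN and 13.0 CPM in Control, and Mxra7, Jmjd6 and Mettl23 had log2 differences of 0.04, 0.11 and -0.04. In proximal tubule-like cells 3 of 18 measured neighbours were higher in IgAN by the rule (Nedd9, Nifk and Trim30d) and 0 lower. Of all genes measured in that class 6.29% were higher and 2.08% lower. In the other 5 classes 0 of the measured neighbours were lower or higher by the rule, while their median log2 differences ran from -0.19 to 0.20. Of all genes measured in those classes 0.435% to 6.35% were lower and 0.466% to 12.2% higher.

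**Figure D5:**
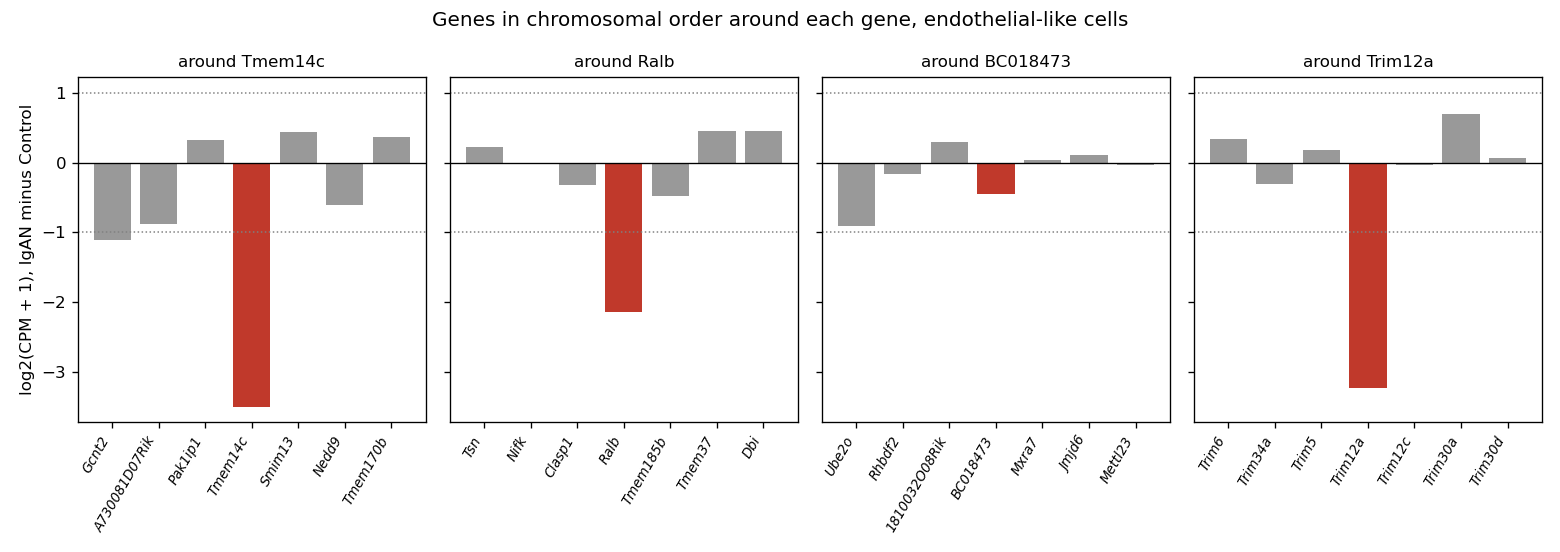
Log2 difference of CPM + 1, IgAN minus Control, in endothelial-like cells for each of the 4 genes (red) and its neighbours in chromosomal order (grey). Dotted lines mark -1 and 1. Tmem14c (-3.50), Ralb (-2.14) and Trim12a (-3.22) stand below their neighbours, of which Gcnt2 (-1.11) alone passes -1, and BC018473 is hardly found in these cells.

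No measured partner of the genes was lower or higher by the rule in endothelial-like cells. Of all genes measured there 0.712% were lower and 0.774% higher, so 0 calls in lists this short is near that share. Of 12 regulators and effectors of Ral GTPases, 11 were measured, and 0 were lower and 0 higher by the rule, with a median log2 of 0.24 against 0.01 for all genes measured. The exchange factors Ralgds (58.9 CPM in IgAN, 88.6 CPM in Control) and Rgl1 (320 CPM in IgAN, 515 CPM in Control) had negative differences that did not meet the rule, of -0.58 and -0.69. The RalGAP subunits Ralgapa1, Ralgapa2 and Ralgapb had positive ones, of 0.23, 0.85 and 0.55. All 9 exocyst subunits were measured, with 0 called and a median of -0.13. Among them Exoc2, which binds Ral, was at 47.5 CPM in IgAN and 58.4 CPM in Control.

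Of 16 genes of heme synthesis and its mitochondrial carriers, 13 were measured in endothelial-like cells, with 0 called and a median of 0.03. Fech, which inserts iron into the porphyrin ring, was at 81.4 CPM in IgAN and 76.6 CPM in Control. Ppox, which acts on the precursor that Tmem14c is known to carry, was at 46.6 CPM in IgAN and 63.3 CPM in Control, log2 -0.43. Alas2, the erythroid form of the first enzyme, was at 0.608 CPM in IgAN and 0.589 CPM in Control. Of 11 other Trim genes of the Trim5 cluster, 7 were measured there, with 0 called and a median of 0.06.

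In other classes a few list genes met the rule, in both directions, among them those given here. In podocyte-like cells Tbk1, a kinase of innate immune signalling, was lower (13.4 CPM in IgAN, 54.6 CPM in Control), and Rgl1 (34.5 CPM in IgAN, 9.76 CPM in Control) and Slc25a28, a mitochondrial iron importer (25.0 CPM in IgAN, 9.12 CPM in Control), were higher. Slc25a28 was higher in mesangial-like cells too, at 14.5 CPM in IgAN and 0.0763 CPM in Control. In proximal tubule-like cells Slc25a37, the other iron importer, was higher (27.6 CPM in IgAN, 0.267 CPM in Control), beside Rala and Trim30d (12.2 CPM in IgAN, 0.160 CPM in Control). In distal tubule or collecting duct-like cells Exoc4 was higher (43.5 CPM in IgAN, 0.484 CPM in Control). There 1 Ral regulator or effector and 1 gene of heme synthesis or its carriers were lower. Of all genes measured in that class, 5.4% were lower and 12.2% higher. The shares were 6.35% and 3.73% in podocyte-like cells, 1.48% and 1.29% in mesangial-like cells, and 2.08% and 6.29% in proximal tubule-like cells. In macrophage or dendritic- and T or NK cell-like cells no list gene met the rule.

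Few genes were lower in as many classes as Tmem14c and Ralb. The 4 genes were chosen for being lower across cell types, so their place here restates that choice. Of 13736 genes measured in at least 1 of the 7 classes, 118 were lower by the rule in 2 or more, 14 in 3 or more and 6 in 4 or more. Among those 6 were Gm10382 in 7 classes, Tmem14c in 6, Ralb in 5, and RP23-110C17.2 and mt-Co1 in 4, named after their counts were seen. BC018473 and Trim12a were lower in 3 classes each, where 0.435% to 1.48% of all measured genes were lower. In the other direction 19 genes were higher in 4 or more classes.

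The genes whose levels ran most like each member were found over 64 combinations of class and plate with at least 10 cells, which share plates and group, as Pearson's r of log2(CPM + 1). For Tmem14c these were Gm5835 (0.72), Gm10382 (0.71), Gm11942 (0.71) and Gm8615 (0.68). For Ralb they were Lifr (0.68), C920021L13Rik (0.65), Rasal2 (0.64), Cdc42ep2 (0.64) and Calml4 (0.64). For BC018473 they were Trim12a (0.78), Gm5835 (0.78), E2f2 (0.73), Gm9025 (0.73) and Gm8369 (0.73), and for Trim12a they were BC018473 (0.78), Gm5835 (0.73), Gm11942 (0.73), Gm10073 (0.70) and Gm5244 (0.69). Within the 28 Control combinations alone, BC018473 and Trim12a kept r = 0.68, while Tmem14c had 0.23 with Ralb, 0.16 with BC018473 and 0.18 with Trim12a. Ralb had -0.26 with BC018473 and -0.26 with Trim12a there.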

How the data were processed

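Smart-seq2 libraries of 3143 sorted kidney cells were read as deposited: per the labels' processing notes and the values, whole-number read counts for 46517 gene names, which the authors did not normalize. Subread 1.4.6-p5 with featureCounts, TopHat2 2.1.1 and SAMtools 0.1.18 are listed, with the build GRCm38 (mm10), per the submitters' processing notes. No source used here gives the annotation, the strand setting or the handling of duplicates. Cells needed 10000 reads and 500 genes, which all had.

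Cells were clustered with scanpy 1.11.5 and leidenalg 0.10.2 (2000 variable genes, 30 components, 15 neighbours, resolution 1) with the 4 genes left out, and clusters were named from marker lists. No doublet caller was run. Cells whose score for another class reached 0.5 of the median of that class were left out as an alternative. Reads were summed by class and plate and scaled to CPM, and log2 differences use 1 CPM added. Each group is 1 sample, since the labels name no animal, so no p-value is given. On simulated data the size rule was tested with known differences. Positions come from GENCODE vM21 on GRCm38, which matched 42052 of the names, and promoters from RefSeq.

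The 4 genes, the gene lists and the rules were chosen with earlier results of these data known. Named besides the 4 genes were relatives (Rala, Tmem14a, Trim12c), list genes that met the size rule, up to 3 measured neighbours on each side and the 5 genes most like each member, apart from a few results that are not reported here. A few list genes were named for their role. Alternatives covered pseudocount, scaling, weighting, resolution, classes from each cell alone, carried markers, depth, filters, fold limit and plates. Leaving out the 41 cells was chosen after seeing the data.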

Additional observations from a re-analysis of the deposited data

Results flagged for a closer look

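In 4 of 36 sets of plates (1 gene, class and group) a plate stood far from the others of its group by Dixon's test. The limit of the test flags about 1 in 20 sets of normally distributed values. CPM near 0 are not so distributed, so the count cannot be set against that rate. All 4 were IgAN plates at the high end. BC018473 in T or NK cell-like cells was at 22.7 CPM on plate 322, next to 1.14 CPM on the second highest of 6 plates. Over all cells it was at 1.80 CPM on the same plate, next to 0.459 CPM. Both values come from 1 cell with 177 reads, which also has a low Gm13340 share. BC018473 in mesangial-like cells was at 0.416 CPM on plate 318 and at 0 CPM on the other 5 plates, from 2 reads in all. Trim12a in T or NK cell-like cells was at 4.49 CPM on plate 316, next to 1.14 CPM. All 4 values lie under the lowest Control plate of the same gene and class.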

How the results depend on the processing

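The log2 difference over all cells stayed negative for the 4 genes under every alternative run. Without each plate in turn it ran from -3.38 to -3.06 for Tmem14c, -2.17 to -1.76 for Ralb, -5.01 to -4.43 for BC018473 and -3.59 to -3.30 for Trim12a. With 5 CPM added it was -2.96 for BC018473 and -2.23 for Trim12a, by construction smaller. Trim12a was at -3.04 on plates 313 to 318 alone and at -3.97 on plates 321 to 326 alone. Within the 7 classes, 583 differences moved by less than the spread between plates and 33 by more. Of all these, 4 were positive: Ralb in T or NK cell-like cells as the mean of the per-cell CPM (0.79), and Ralb in distal tubule or collecting duct-like cells with plates of the same weight (1.51), without plate 314 (1.78) and on plates 321 to 326 alone (2.11).

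Without each plate in turn, Tmem14c was lower in 5 to 7 classes, Ralb in 4 to 5, BC018473 in 3 to 3 and Trim12a in 3 to 4. Plates 321 to 326 alone left 3 classes to compare, with Tmem14c lower in 3 and Ralb in 2. Without cells that carried markers of another class 4 classes could be compared, with Ralb lower in 2 (in proximal tubule-like cells its plates then overlapped), and podocyte-, mesangial- and distal tubule-like cells could not be fitted. With a filter of 50 CPM Trim12a was lower in 1 class, since it is measured in 1.

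The 69 genes lower in endothelial-like cells became 35 with a filter of 50 CPM, 116 with no filter, 19 at a fold limit of 4, and 76 to 109 without each plate in turn (109 without plate 314), where fewer plates must lie apart. Scaling by the median of ratios changed the split of podocyte-like calls to 409 lower and 602 higher, against 606 and 356, of proximal tubule-like calls to 322 and 546, against 214 and 648, of distal tubule or collecting duct-like calls to 695 and 1004, against 538 and 1216, and of macrophage or dendritic-like calls to 60 and 63, against 43 and 72. It moved no count of classes for the 4 genes, and without the 41 cells of 6 classes compared Tmem14c was lower in 6, Ralb in 5, BC018473 in 3 and Trim12a in 3.

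Shares of cells depend on the reads asked for. With 3 reads they were 9.34% in IgAN and 38.7% in Control for Tmem14c, 19.0% in IgAN and 33.6% in Control for Ralb, 0.167% in IgAN and 9.07% in Control for BC018473, and 0.890% in IgAN and 10.9% in Control for Trim12a. Thinned to 50000 reads they were 9.45% in IgAN and 43.6% in Control for Tmem14c, 20.6% in IgAN and 37.8% in Control for Ralb, 1.45% in IgAN and 12.7% in Control for BC018473, and 2.95% in IgAN and 13.2% in Control for Trim12a. No paired analysis was possible because the labels give no replicate numbers shared by the groups.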
